A study of Saccharomyces cerevisiae with 4 samples.

Results

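The 8 protein genes of the mitochondrial genome considered here were COX1, COX2, COX3, COB, ATP6, ATP8, OLI1 and VAR1, out of 5656 genes measured on the arrays. They were selected by gene symbol: probe sets annotated to these symbols were followed one by one across the arrays. There were 20 such probe sets, of which 14 were listed for a member alone and 6 were shared with reading frames inside the introns of COX1 or COB. Expression was measured in exponentially growing Saccharomyces cerevisiae, with 1 Affymetrix Yeast Genome S98 array per strain. The strains were a ubp10 null, a sir4 null, a ubp10 sir4 double null and the wild type W303-1A, a laboratory strain. The labels call the mutants null and name no marker, allele or clone, and they state total RNA without a labelling method. Each strain had a single array, which leaves every difference below without a replicate, an error or a test.

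Budding yeast keeps a small circular-mapping genome in its mitochondria, and its mRNAs are made by a dedicated RNA polymerase inside the organelle. COX1, COX2 and COX3 encode the core subunits of cytochrome c oxidase (complex IV), COB encodes cytochrome b of the bc1 complex (complex III), ATP6, ATP8 and OLI1 encode membrane subunits of the ATP synthase, and VAR1 encodes a protein of the small mitochondrial ribosomal subunit. COX1 and COB are split by introns, several of which carry reading frames for maturases or endonucleases that run on from the exons before them. Mitochondrial mRNAs of this yeast lack the poly(A) tails of nuclear mRNAs and depend on nuclear-encoded factors for processing, stability and translation. UBP10 encodes a ubiquitin protease that acts on histone H2B, and SIR4 encodes a subunit of the silencing complex of telomeres and silent mating cassettes.

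The deposited intensity is a linear, averaged difference between matching and mismatching probes, and it can be negative. The noise SD was 2.22 units, and values under a floor of 6.67 units (3 noise SDs) were raised to it. UBP10 read 5.7 units in the ubp10 null, 269.2 in the array labelled sir4 null (called the sir4-labelled array from here on), 4.0 in the double null and 247.9 in the wild type. SIR4 read 4.9, 20.7, 15.5 and 10.8 units in the same order. SIR4 signal was therefore no lower on the 2 arrays labelled as lacking SIR4 than in wild type, where it was near the floor, and it does not check those labels. The a-specific mating markers MFA1, MFA2, STE2, BAR1, AGA2 and STE6 read between 51.9 and 1195.7 units on all arrays except the double null, where they read between 2.1 and 31.6. Loss of SIR silencing is known to shut off such genes in haploids of mating type a, so the level of these genes on the sir4-labelled array goes against its label, and removal of SIR4 below means removal as labelled. The actin control (ACT1) was 86.9-fold brighter at its 3′ than at its 5′ end on the sir4-labelled array, against 1.1- to 1.5-fold on the other 3. Bacterial hybridization controls had medians of 255.4 units in the ubp10 null, 106.8 in the sir4-labelled array, 62.1 in the double null and 209.6 in the wild type.

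Many mitochondrial probe sets were brightest on the sir4-labelled array, with COX3, COX2 and COB furthest from the wild type, whereas ATP6 and the brighter OLI1 probe set were dimmer there. The double null lacked most of this signal. In bulk RNA, more mitochondrial RNA per cell and a larger share of cells that hold it cannot be told apart. Of the 14 probe sets listed for a member alone, 11 reached the brightness minimum of 13.3 units (2 times the floor) on some array, and 7 of these 11 were brightest on the sir4-labelled array, as were 6 of 6 shared probe sets. Among 6744 probe sets of any gene that reached the minimum, 36.7% were brightest on that array. COX2, OLI1 3993_at and the shared COB 3968_s_at reached the minimum there alone, which fixed their order. Of those that reached it on another array, a limit set after the data were seen, 5 of 9 listed for a member alone, 5 of 5 shared and 35.3% of 6601 probe sets of any gene were brightest on the sir4-labelled array. The 3 probe sets that never reached it, both for VAR1 and 1 for ATP8, could not be called in any comparison.

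**Figure D1:**
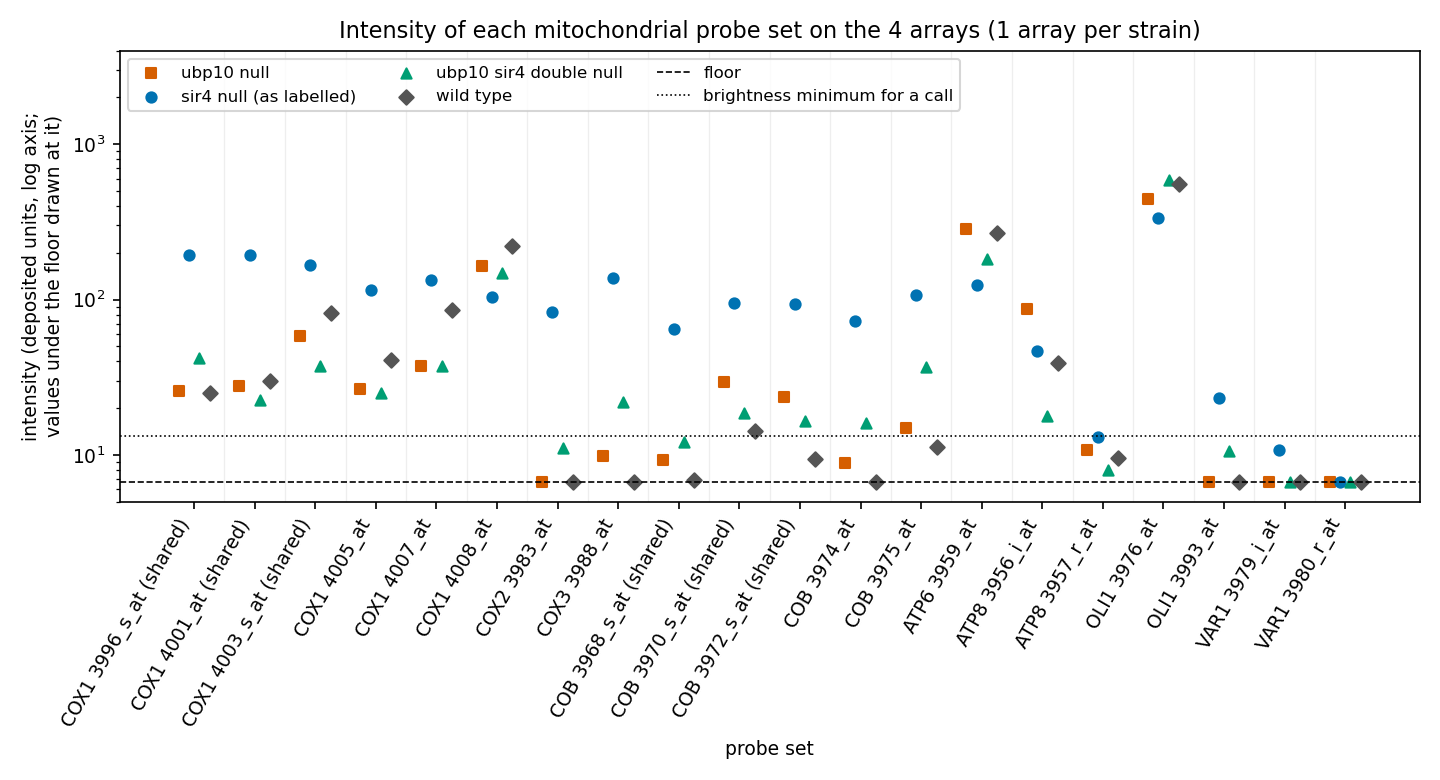
Intensity (deposited units, log axis) of the 20 mitochondrial probe sets on the 4 arrays, with 1 point per strain and values under the floor of 6.67 units drawn at the floor. The sir4-labelled array (circles) lies above the others for COX2, COX3, all 5 COB probe sets and 5 of the 6 COX1 probe sets, and lowest for ATP6, OLI1 3976_at and COX1 4008_at.

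COX3, a core subunit of complex IV, had the widest range. Its probe set read 9.8 units in the ubp10 null, 138.0 in the sir4-labelled array, 22.0 in the double null and 5.6 in the wild type. The sir4-labelled array was far above the rest, the double null came next, and the wild type lay under the floor. A call required a ratio of at least 2 and a brighter value of at least 13.3 units. Ratios were taken relative to the median log2 ratio of probe sets above the floor on both arrays, which was -0.02 for the ubp10 null, 0.47 for the sir4-labelled array and 0.48 for the double null, each against wild type. On this scale COX3 was at least 15.0-fold higher on the sir4-labelled array than in wild type (at least 20.7-fold as deposited). It was at least 2.37-fold higher in the double null than in wild type, a call that was lost with the floor doubled, and 6.04-fold lower in the double null than on the sir4-labelled array.

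COX2, the subunit that carries the copper site receiving electrons from cytochrome c, had the same 2 arrays on top. It read 5.6 units in the ubp10 null, 83.5 in the sir4-labelled array, 11.1 in the double null and 4.9 in the wild type. Only the sir4-labelled array passed the brightness minimum, and the ubp10 null and wild type lay under the floor. COX2 was at least 9.06-fold higher on the sir4-labelled array than in wild type. It was 7.25-fold lower in the double null than on the sir4-labelled array.

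COX1, the catalytic subunit of complex IV, was read by 6 probe sets that did not move alike. The gene table gives COX1 and the intron frames AI1, AI2, AI3, AI4 and AI5_ALPHA a common start and successively later ends. A probe set shared with all 5 frames therefore lies in the first exon, and probe sets shared with fewer frames lie further 3′. The order of the 3 probe sets listed for COX1 alone is unstated in the sources used here. Among shared ones, 3996_s_at, shared with all 5 frames, read 25.6 units in the ubp10 null, 192.9 in the sir4-labelled array, 42.1 in the double null and 24.9 in the wild type. Probe set 4001_at, shared with AI4 and AI5_ALPHA, read 27.7, 192.9, 22.6 and 29.7 units in the same order. Probe set 4003_s_at, shared with AI5_ALPHA, read 58.0, 168.0, 37.4 and 81.4 units. In all 3, the sir4-labelled array was highest.

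The excess on the sir4-labelled array over the wild type differed along COX1. It was 5.61-fold for 3996_s_at, 4.7-fold for 4001_at and 1.49-fold, not called, for 4003_s_at. As deposited these were 7.75-, 6.49- and 2.06-fold, and all 3 were called. Among the probe sets of COX1 alone, 4005_at read 26.4 units in the ubp10 null, 115.5 in the sir4-labelled array, 25.1 in the double null and 41.0 in the wild type, and was called 2.04-fold higher on the sir4-labelled array than in wild type, a call lost with quantile normalization and cyclic loess. Probe set 4007_at read 37.4, 133.8, 37.3 and 85.7 units in the same order and was not called there. Probe set 4008_at read 164.1, 103.2, 149.0 and 222.7 units and was 2.98-fold lower on the sir4-labelled array than in wild type. The log2 ratios of the 6 COX1 probe sets in this comparison thus ran from -1.58 to 2.49, a spread of 4.07. Over the 3 listed for COX1 alone the spread was 2.61. For 219 genes with more than 1 bright probe set listed for them alone, the median spread was 2.14 in the same comparison, and 0.98 in the ubp10 null against wild type. The ACT1 controls on the sir4-labelled array read 16.1 units at the 5′ end, 176.2 in the middle and 1399.6 at the 3′ end, against 1464.1, 1682.2 and 2265.2 in the wild type. The loss of actin signal was largest at the 5′ end, and the excess of COX1 was largest for 3996_s_at in the first exon. COX1 mRNA lacks the poly(A) tail of nuclear mRNAs and the labelling method is unstated, so the 2 patterns cannot be set against each other. The part of RNA quality in the COX1 pattern was not tested.

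COB, cytochrome b, was also split, but its 5 probe sets gave similar ratios on the sir4-labelled array. Probe set 3975_at, listed for COB alone, read 14.8 units in the ubp10 null, 106.7 in the sir4-labelled array, 36.5 in the double null and 11.3 in the wild type. Probe set 3974_at, also of COB alone, read 8.8, 73.1, 16.0 and 6.4 units in the same order. The sir4-labelled array was highest and the double null second for both. The 3 shared probe sets read 9.2 to 29.6 units in the ubp10 null, 64.8 to 94.9 in the sir4-labelled array, 12.0 to 18.7 in the double null and 6.9 to 14.2 in the wild type. Relative to wild type, the 5 log2 ratios on the sir4-labelled array lay between 2.27 and 2.99, and all 5 were called higher. Against wild type, 3975_at alone was called higher in the double null, by 2.32-fold, a call that was lost under cyclic loess. In the ubp10 null, 3970_s_at and 3972_s_at were 2.11- and 2.52-fold higher than in wild type, while both COB probe sets listed for that gene alone were not called.

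**Figure D2:**
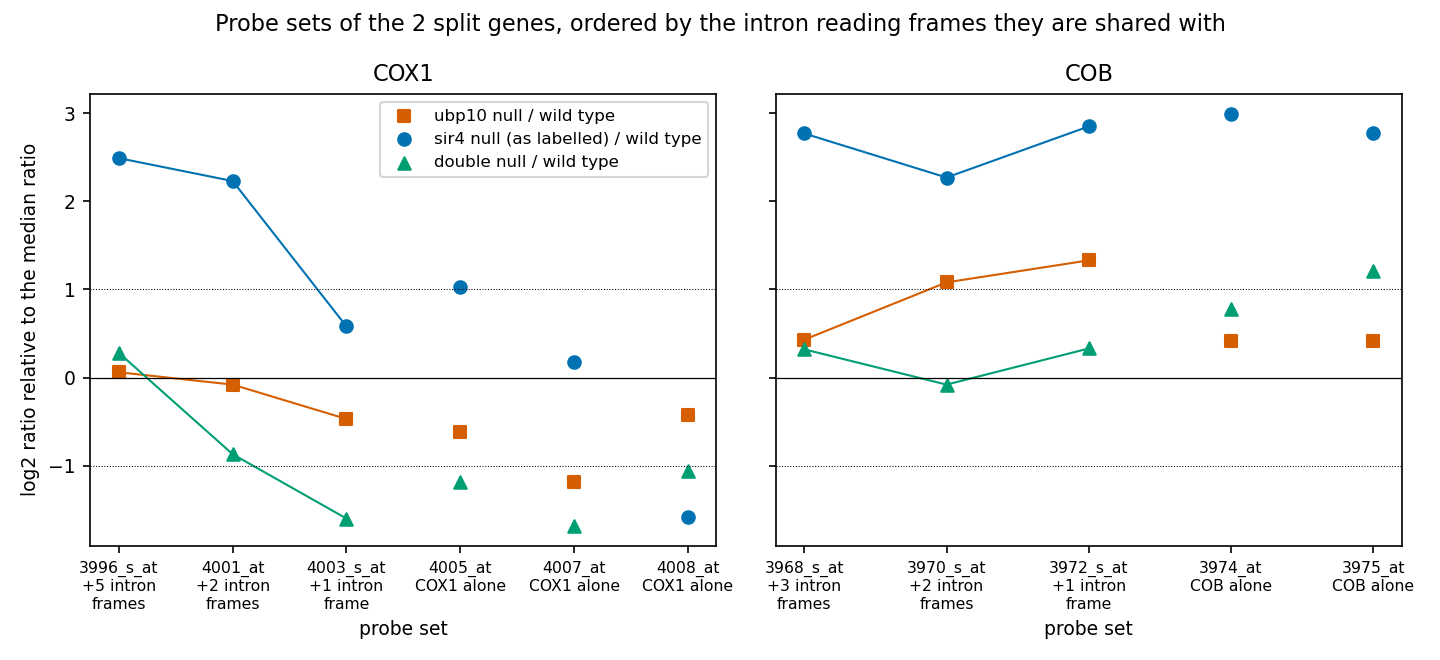
Log2 ratio to wild type, relative to the median ratio, for the COX1 (left) and COB (right) probe sets, with 1 point per mutant array. Shared probe sets are joined by lines and ordered by how many intron frames they share, those sharing most lying furthest 5′; the probe sets of COX1 or COB alone have no set order. On the sir4-labelled array COX1 runs from 2.49 to -1.58 and COB from 2.27 to 2.99.

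ATP6, ATP8 and the brighter OLI1 probe set did not share the pattern of COX2, COX3 and COB. The dimmer OLI1 probe set was highest on the sir4-labelled array and second in the double null, as COX2 and COX3 were. ATP6, a subunit of the proton channel, read 286.4 units in the ubp10 null, 123.2 in the sir4-labelled array, 181.8 in the double null and 269.4 in the wild type. It was lowest on the sir4-labelled array, at 3.02-fold below wild type, and it was 2.06-fold lower in the double null than in wild type. The fall in the double null was not called as deposited (1.48-fold), with quantile normalization or with cyclic loess. OLI1, which encodes the subunit of the rotating ring, had 2 probe sets that moved in opposite directions. Probe set 3976_at read 446.2 units in the ubp10 null, 335.7 in the sir4-labelled array, 591.8 in the double null and 554.9 in the wild type, and 3993_at read 2.9, 23.2, 10.5 and 2.7 units in the same order. On the sir4-labelled array 3976_at was called 2.28-fold lower than in wild type and 3993_at at least 2.52-fold higher, the second call being lost with the floor doubled. The fall of 3976_at was not called as deposited (log2 ratio -0.73), with quantile normalization (-0.62) or with cyclic loess (-0.78). Why the 2 probe sets of OLI1 disagree was not tested.

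ATP8, a small subunit that joins the stator to the membrane part, was highest in the ubp10 null with the brighter of its 2 probe sets. That probe set, 3956_i_at, read 87.1 units in the ubp10 null, 46.8 in the sir4-labelled array, 17.8 in the double null and 39.2 in the wild type. It was 2.25-fold higher in the ubp10 null and 3.07-fold lower in the double null, each against wild type. The other ATP8 probe set, 3957_r_at, read 10.8, 13.1, 8.0 and 9.6 units in the same order. It was highest on the sir4-labelled array and too dim for a call. VAR1, the ribosomal protein gene, read 3.1 units in the ubp10 null, 10.8 in the sir4-labelled array, 4.0 in the double null and 2.5 in the wild type with 3979_i_at, and at most 2.4 units with 3980_r_at. The sir4-labelled array was the only one with a VAR1 value above the floor.

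Other features of mitochondrial DNA were faint but had the same array above the rest. The intron frames AI1 to AI5_BETA and BI2 to BI4, the endonuclease frame SCEI and the frame Q0255 had 14 probe sets of their own for 11 features. On the sir4-labelled array 6 of the 14 were above the floor, against 0 of 14 in the ubp10 null, 0 of 14 in the double null and 0 of 14 in the wild type. Among all probe sets, 73.7% were above the floor in the ubp10 null, 71.7% in the sir4-labelled array, 73.1% in the double null and 69.4% in the wild type. The BI4 maturase frame read 30.1 and 12.9 units with its 2 probe sets on the sir4-labelled array, against 2.2 and 1.1 in the wild type. SCEI, the frame in the intron of the large ribosomal RNA gene, read 20.6 units there against -2.3 in the wild type. Relative to the median ratio, SCEI and 1 BI4 probe set were called, at least 2.24- and 3.27-fold higher. These were 2 of 14 (14.3%), beside 7.02% of all probe sets under the brightness minimum in the wild type. On the other arrays 0 of the 14 reached that minimum, so these 2 could be called only as higher. In the same array AI2 read 14.4 units and AI3 12.5, whereas BI2, BI3, AI4, AI5_ALPHA and AI5_BETA read between -0.1 and 0.5.

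The sir4-labelled array against wild type asked for the effect of removing SIR4 where UBP10 was present. Of the 14 probe sets listed for a member alone, 6 were called higher and 3 lower, beside 6.35% higher and 12.0% lower among all 9275 probe sets. As deposited the counts were 6 and 2, beside 16.8% and 6.74%. The 6 higher were both COB probe sets, COX2, COX3, OLI1 3993_at and COX1 4005_at. Of these, 5 were under the brightness minimum in the wild type, so they could be called only as higher; 7.02% of all probe sets under that minimum in the wild type were called higher. The 3 lower (ATP6, OLI1 3976_at and COX1 4008_at) all had at least 200 units in the wild type. Among 1330 probe sets that bright, 39.3% were called lower and 0.0% higher, so the falls of these 3 were shared by many bright probe sets of other genes. Of the 6 shared probe sets 5 were called higher and 0 lower (6 and 0 as deposited). The median log2 ratio was 0.2 over the 14 and 2.38 over the 6, beside -0.37 over all probe sets. That last value is lowered by probe sets at the floor on both arrays, each of which receives -0.47. Over the 6275 probe sets past the brightness minimum the median was 0.02. The 14 include probe sets that never reached that minimum, so their median is not on a like footing. Over the 10 of the 14 with no letter before _at in their names, all past the minimum, the median was 1.18. Of these 10, 5 passed it on the sir4-labelled array alone of the 2 arrays compared. Relative to the hybridization controls 8 of the 14 were higher and 0 lower, with 47.1% of all probe sets higher, and ATP6 (-0.16) and COX1 4008_at (-0.14) were not called.

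The ubp10 null against wild type asked for the effect of removing UBP10 where SIR4 was present. Of the 14, 7 were bright enough for a call; 1 was called higher (ATP8 3956_i_at) and 1 lower (COX1 4007_at, 2.27-fold), beside 10.0% higher and 6.17% lower among all probe sets, so the members' counts were near the background. The 2 COB probe sets named above were the calls among the 6 shared ones. The median log2 ratio over the 14 was 0.02, the value that a probe set at the floor on both arrays receives, as 4 of the 14 did.

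In the double null against wild type 2 of 14 were higher (COX3 and COB 3975_at) and 5 lower (ATP6, ATP8 3956_i_at and the 3 probe sets of COX1 alone), beside 4.53% higher and 9.55% lower among all probe sets. The falls of COX1 were 2.27-fold for 4005_at, 3.2-fold for 4007_at and 2.08-fold for 4008_at, and shared probe set 4003_s_at was 3.03-fold lower. The calls of 4005_at and 4008_at were lost on the values as deposited. As deposited the counts were 3 higher and 2 lower, beside 14.6% and 5.69%, and with quantile normalization 3 and 3, beside 4.49% and 6.75%. Among probe sets with at least 200 units in the wild type, 40.5% were called lower in this comparison, and ATP6 and COX1 4008_at were in that class. Relative to the hybridization controls the counts were 7 higher and 0 lower, with 60.1% of all probe sets higher; the sources used here do not say how much of these controls was added.

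Between the 2 arrays labelled as lacking SIR4, every call among the members ran in a single direction, fixed for some by the brightness minimum. In the double null against the sir4-labelled array 0 of 14 were higher and 8 lower, beside 8.13% higher and 3.98% lower among all probe sets, and 6 of 6 shared probe sets were lower. The 8 were COX2, COX3, both COB probe sets, COX1 4005_at and 4007_at, OLI1 3993_at and ATP8 3956_i_at. Their falls ran from 2.13-fold (OLI1 3993_at) to 7.25-fold (COX2), and those of the shared probe sets from 4.33-fold (COX1 4003_s_at) to 8.22-fold (COX1 4001_at). COX2 (11.1 units), OLI1 3993_at (10.5) and the shared COB probe set at 12.0 were under the minimum of 13.3 units in the double null. These could therefore be called only as lower. The other members called lower reached the minimum on both arrays. As deposited the counts were also 0 and 8, beside 7.53% and 4.69%. The count lower was 8 with quantile normalization and with cyclic loess, beside 5.43% and 4.46% of all probe sets. Relative to the hybridization controls 5 were lower and 3 higher, beside 1.0% and 22.3%. Both this comparison and that with the wild type share the sir4-labelled array, whose RNA controls stood apart.

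**Figure D3:**
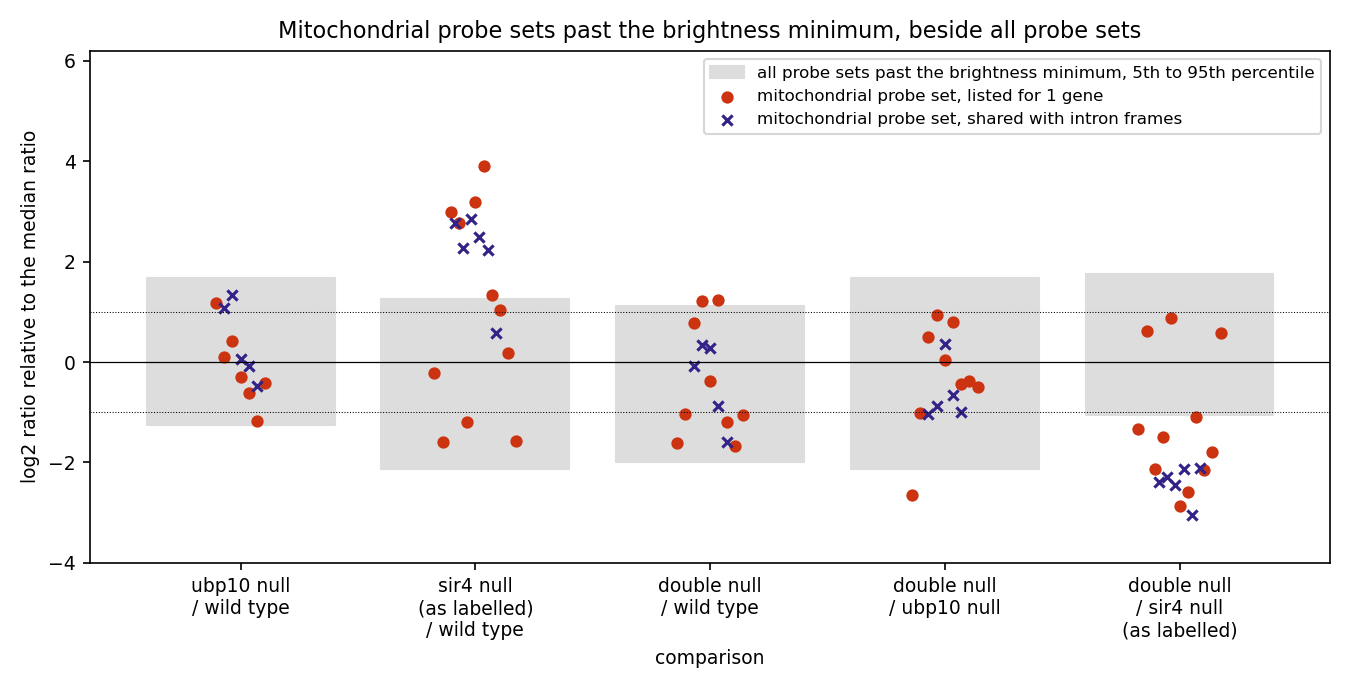
Log2 ratio, relative to the median ratio, of each mitochondrial probe set that reached 13.3 units in a comparison (dots for those listed for 1 gene, crosses for those shared with intron frames), beside the 5th to 95th percentile of all such probe sets (grey). Many members lie above the grey range for the sir4-labelled array against wild type (grey from -2.13 to 1.25), and many lie below it for the double null against that array (grey from -1.05 to 1.76).

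Removal of SIR4 where UBP10 was absent did not carry the excess seen where it was present. In the double null over the ubp10 null 0 of 14 probe sets were called higher and 2 lower (ATP8 3956_i_at, 6.29-fold, and ATP6, 2.03-fold, a call lost as deposited, with quantile normalization and with the floor doubled), beside 12.6% higher and 15.3% lower among all probe sets. As deposited 2 were higher (COX3, 2.24-fold, and COB 3975_at, 2.47-fold) and 1 lower, beside 20.9% and 10.7%. This comparison and that of the sir4-labelled array with the wild type use 4 different arrays. The log2 ratio of COX3 was 0.8 where UBP10 was absent and at least 3.9 where it was present. It was at least 0.37 and at least 3.18 for COX2, and 0.94 and 2.77 for COB 3975_at. For COX1 3996_s_at it was 0.35 and 2.49. The order was the other way for ATP6 (-1.02 and -1.59), COX1 4008_at (-0.5 and -1.58) and OLI1 3976_at (0.04 and -1.19). None of these differences has a test, since each ratio rests on 1 array per strain.

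**Figure D4:**
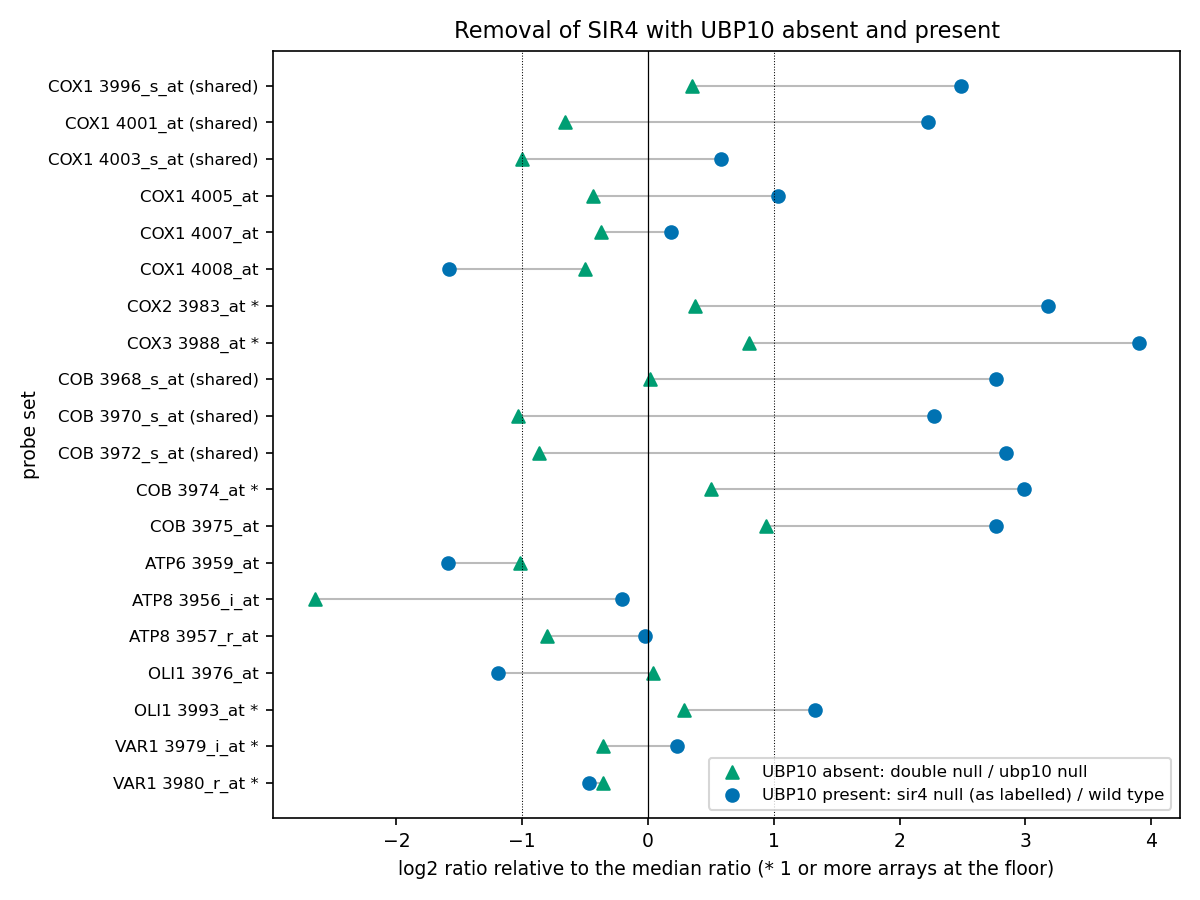
Log2 ratio for removal of SIR4, relative to the median ratio, with UBP10 absent (triangles, double null over ubp10 null) and present (circles, sir4-labelled array over wild type), for each of the 20 probe sets; an asterisk marks those with a value at the floor. COX3 stands at 0.8 and 3.9 and COX2 at 0.37 and 3.18, whereas ATP6 stands at -1.02 and -1.59.

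Nuclear genes that act on the members were read from 7 lists with 103 measured genes, each gene being the mean log2 of its probe sets. On the sir4-labelled array against wild type 6 of 103 were higher and 9 lower, beside 6.03% higher and 9.65% lower among all genes. The median log2 ratio was 0.15, beside -0.09 for all genes, those at the floor included. The share called was thus near the background in both directions. Of 15 translation activators 3 were higher and 1 lower (median 0.37). CBS1 and CBP6, which act in translation of the COB mRNA, read 56.0 and 60.5 units on the sir4-labelled array and 13.3 and 19.8 in the wild type, and were called 2.99- and 2.17-fold higher. PET54, PET122 and PET494, the activators of COX3, did not move together. PET54 read 154.3 units on the sir4-labelled array against 37.7 in the wild type, 2.91-fold higher; PET122 read 58.2 against 149.7, 3.62-fold lower; and PET494 read 36.5 against 18.2 and was not called.

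Of 8 genes of mitochondrial DNA transcription and maintenance 0 were called on the sir4-labelled array against wild type (median 0.14). RPO41, the mitochondrial RNA polymerase, read 45.4 units in the ubp10 null, 58.2 in the sir4-labelled array, 68.3 in the double null and 37.3 in the wild type. MTF1, its specificity factor, read 26.0, 79.9, 76.3 and 37.8 units in the same order. Neither was called in any mutant against wild type. Of 15 RNA processing and turnover genes 0 were higher and 1 was lower (median 0.19). The gene lower was CBP1, which stabilises COB mRNA; it read 35.4 units in the ubp10 null, -28.9 in the sir4-labelled array, 60.5 in the double null and 19.0 in the wild type. Its value on the sir4-labelled array was far below 0, so mismatching probes were on average brighter than matching ones there. Raised to the floor, that value gave the call, at least 4.01-fold lower than in wild type. The call rests on this reading alone and cannot be taken as an amount of CBP1 RNA. Of 30 insertion and assembly genes 0 were higher and 3 lower (median 0.32), with the inner membrane protease gene YME1 lowest, at 14.9-fold below wild type.

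Few nuclear subunits of the same complexes were called on the sir4-labelled array against wild type. Of 9 for complex III 0 were higher and 2 lower (median -0.19). RIP1, the iron-sulfur subunit that works beside cytochrome b, read 172.0 units there against 375.4 in the wild type, 3.07-fold lower. Of 10 for complex IV 1 was higher and 1 lower (median 0.12): COX26, at least 19.5-fold higher, and COX5A, 2.04-fold lower. Of 16 for the ATP synthase 2 were higher and 1 lower (median -0.08), the higher ones being INH1 and STF1, which inhibit the enzyme or support its inhibitor. The genes called lower, RIP1, COR1, COX5A and ATP16, all had at least 200 units in the wild type, the class in which 39.3% of probe sets were called lower. In the double null against that array, where 8 of 14 mitochondrial probe sets were lower, 12 of the 103 nuclear genes were higher and 3 lower, beside 7.9% and 3.15% of all genes. RIP1 was 4.06-fold and COX5A 2.53-fold higher in that comparison. In the other comparisons, 7 of 103 were called higher and 5 called lower for the ubp10 null against wild type (all genes 9.9% and 7.64%), 10 and 1 in the double null against wild type (4.3% and 6.63%), and 17 and 6 in the double null over the ubp10 null (13.4% and 13.2%).

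Other RNAs without poly(A) tails were read beside the members, by biotypes chosen after the data were seen. Of 59 small nucleolar RNA probe sets 13 (22.0%, beside 6.35% of all probe sets) were higher and 1 lower on the sir4-labelled array than in wild type, and their summed intensity was 3353 units there against 1548. In the ubp10 null 11 (18.6%, beside 10.0%) were higher and 5 lower than in wild type. In the double null against the sir4-labelled array 1 was higher and 11 (18.6%, beside 3.98%) were lower. Of 92 transfer RNA probe sets 6 were higher and 10 lower on the sir4-labelled array, with sums of 947 and 903 units in that array and the wild type. In the ubp10 null 28 of these 92 (30.4%, beside 10.0%) were higher than in wild type and 0 lower, with a sum of 2410 units. Of 10 cytosolic ribosomal RNA controls, 5 were above the floor in the ubp10 null, 1 in the sir4-labelled array, 1 in the double null and 1 in the wild type. In the double null against wild type 2 small nucleolar RNA probe sets were higher and 3 lower (3.39% and 5.08%, beside 4.53% and 9.55%). Of the 92 transfer RNA probe sets 0 were higher and 17 lower there (18.5%, beside 9.55%). On both single-mutant arrays the share of small nucleolar RNA probe sets called higher thus exceeded the background. Their median log2 ratios, floor values included, were -0.03 on the sir4-labelled array and 0.02 in the ubp10 null. Transfer RNAs and ribosomal RNA controls were highest in the ubp10 null. The part of RNA preparation or labelling in the members' values was not tested.

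The nuclear genes whose pattern over the 4 arrays was most like a member were found by the root mean square difference of log2 values, each centred on its own mean, among 5046 genes. For COB the nearest were INO1, inositol phosphate synthase, at 0.161 log2 units and DAL2, an allantoin catabolic gene, at 0.172, and the same pair was nearest to COX3, at 0.291 and 0.464. INO1 read 15.5 units in the ubp10 null, 130.7 in the sir4-labelled array, 32.8 in the double null and 9.5 in the wild type. For COX2 the nearest were NRS1 (0.289) and SPL2 (0.363), and for the mean of the 3 probe sets of COX1 alone YAT2 (0.098) and UBR2 (0.127), although those 3 disagreed and the mean describes none of them. ATP6 was nearest to RPL17A, a cytosolic ribosomal protein gene, at 0.035 and to the cell wall gene CCW14 at 0.09. ATP8 was nearest to DIG1 (0.031) and SNR56 (0.033). The mean of the discordant OLI1 probe sets was nearest to PAM17 (0.005) and TDA3 (0.017), and describes neither probe set. These measures describe 4 arrays, with no test.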

How the data were processed

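Total RNA of 4 yeast strains was measured on 1 Affymetrix Yeast Genome S98 array each. Per the labels' protocols, the authors computed the deposited intensity values with MAS 4.0; global scaling is unstated in the sources used here. Trimmed means (2nd to 98th percentile) were 99.5 to 100.1 units on the 4 arrays. Of 9335 probe sets, 60 were controls. Of the other 9275, 6504 had 1 gene symbol in the platform annotation (all matched by gene identifier in the RefSeq table of assembly R64), 328 had several and 2443 were not listed. No coordinates or sequences are given.

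The noise SD was 1.4826 times the median size of the negative values. Levels are intensities as deposited; ratios and calls are relative to the median log2 ratio. Members and lists were chosen with earlier results of these data known. Every member probe set is named; nuclear genes were named by the size of their ratio or as factors of a single member. The number of arrays limits the precision. Calling was tested on simulated data. Alternatives covered scaling, floor, ratio, brightness and probe sets; those using hybridization controls or shared probe sets, and the 200-unit class, were chosen after seeing the data. Python 3.11.15, numpy 2.4.6, pandas 2.3.3, matplotlib 3.10.9, R 4.3.3 and limma 3.58.1 were used.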

Additional observations from a re-analysis of the deposited data

Results flagged for a closer look

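In 3 probe sets removal of a gene went with a called change in opposite directions in the 2 backgrounds. With 1 array per strain these differences were not tested. The share of all probe sets with such opposite calls is not given here, so the 3 cannot be called particular to the members. Each contrast uses the sir4-labelled array, whose mating markers went against its label and whose RNA controls stood apart. For ATP8 3956_i_at the log2 ratio for removal of UBP10 was -1.34 where SIR4 was absent (double null against the sir4-labelled array) and 1.17 where it was present (ubp10 null against wild type). For the shared COB probe set 3972_s_at it was -2.45 and 1.33 in the same order. For the shared COB probe set 3970_s_at it was -2.29 and 1.08. For 3970_s_at removal of SIR4 also gave opposite calls, -1.03 where UBP10 was absent (double null over ubp10 null) and 2.27 where it was present (the sir4-labelled array against wild type). On the values as deposited the first of these was -0.66 and not called, so the opposite call was lost; the other opposite calls of these 3 probe sets were also made on the values as deposited. Relative to the hybridization controls that ratio was 1.41.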

How the results depend on the processing

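Counts below are of the 14 probe sets listed for a member alone, main values in the report. They are not repeated for every setting, so a count left out need not be 0. Bracketed percentages are the shares of all probe sets called at the same ratio, floor and scale. With a ratio of 3 the counts were 0 higher and 0 lower for the ubp10 null against wild type (3.74% and 1.48%). Against wild type there were 4 higher and 1 lower on the sir4-labelled array (1.55% and 5.78%), and 0 higher and 2 lower in the double null (1.07% and 5.08%). There was 1 lower in the double null over the ubp10 null (7.98%), and 5 lower in the double null against the sir4-labelled array (1.34%). With a ratio of 1.5, 2 were lower in the ubp10 null against wild type (13.7%). In the double null 2 were higher over the ubp10 null (22.0%) and 2 against the sir4-labelled array (13.7%). As deposited, the double null had 2 lower against wild type (5.69%), and 2 higher and 1 lower over the ubp10 null (20.9% and 10.7%). Quantile normalization gave 3 lower in the double null against wild type (6.75%) and 1 lower over the ubp10 null (13.1%). Cyclic loess gave 1 higher in the double null against wild type (3.64%). The floor halved gave 1 higher in the double null over the ubp10 null (14.4%). Doubled, it gave 1 higher in the double null against wild type (2.93%) and 1 lower over the ubp10 null (12.1%). A brightness of 4 times the floor gave 1 higher in the double null against wild type (3.55%). The 10 plain probe sets alone gave 0 higher in the ubp10 null against wild type (10.0%) and 1 lower in the double null over the ubp10 null (15.3%). With the 6 shared probe sets, of 20, 3 were higher in the ubp10 null (10.0%) and 11 on the sir4-labelled array (6.35%), each against wild type. Of the same 20, 14 were lower in the double null against that array (3.98%).

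Relative to the hybridization controls, counts were 0 higher in the ubp10 null (6.57% of all probe sets) and 0 lower on the sir4-labelled array (2.62%), each against wild type. In the double null against wild type they were 7 higher and 0 lower (60.1% and 0.496%). They were 8 higher and 0 lower in the double null over the ubp10 null (61.0% and 0.852%), so the count higher was near the background. Against the sir4-labelled array the double null had 3 higher and 5 lower (22.3% and 1.0%). On that scale 28 of 70 log2 ratios changed sign, 7 of them called in the report: OLI1 3976_at on the sir4-labelled array (0.25), ATP8 3956_i_at (0.61), ATP6 (1.18), COX1 4005_at (1.04), 4007_at (0.55) and 4008_at (1.17) in the double null, each against wild type, and ATP6 in the double null over the ubp10 null (1.42). The cause was not tested. In 10 of the 70 both values lay at the floor, so their sign was set by the scaling alone. Of the 70 (14 probe sets in 5 comparisons), 62 kept their call or their lack of one as deposited. The count was 64 with quantile normalization and 66 each with cyclic loess, the floor halved and the floor doubled. Many of the 70 had no call to keep, and as deposited those under the brightness minimum could not gain one. Calls lost were 5 as deposited, 5 with quantile normalization, 4 with cyclic loess and 4 with the floor doubled. Calls gained were 3 as deposited, 1 with quantile normalization and 4 with the floor halved. The calls of COX2, COX3 and COB on the sir4-labelled array against wild type were kept under these 5 settings. No paired analysis was possible because each strain had 1 array.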
